A study of Mus musculus with 12 samples.

Results

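The urea cycle and the aminotransferases that feed it were followed through mouse livers that carried or lacked Pml, on a low-fat or a high-fat diet. The 9 genes were chosen by name, though with earlier results of these data known. They were Cps1, Otc, Ass1, Asl, Arg1 and Nags of the urea cycle, and the aminotransferases Got1, Gpt and Tat. Every probe set annotated to exactly 1 of these symbols was taken, which gave 10 probe sets for 8 genes, of 17097 genes with such a probe set on the array. Got1, the cytosolic aspartate aminotransferase, had no probe set of this kind and was not analysed here. Otc and Ass1 had 2 probe sets each and the other 6 genes had 1 each. All 8 genes passed the filter on dim genes.

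The livers came from male mice, described as wild type or PML knockout, that had eaten for 20 weeks a diet with 10% of its calories from fat (the low-fat diet, which the design calls the control diet) or 60% (the high-fat diet). All 4 groups were fasted for 8 h before the tissue was taken, so each value below is that of a fasted liver. Each group of 8 mice gave 3 liver extracts, each on its own array, 12 arrays in all. The sources used here give no strain, age or design of the Pml allele, and do not say outright that each extract came from its own mouse, so the p-values measure the spread between extracts. Below, each extract is called a liver, which does not mean that it was shown to come from a separate animal. The number of arrays limits the precision.

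Amino acids that the liver burns leave nitrogen behind, and the urea cycle turns that nitrogen into urea for excretion. Aminotransferases collect the nitrogen on glutamate and aspartate, glutamate releases it as ammonia in the mitochondrion, and aspartate carries the second nitrogen atom into the cycle in the cytosol. Hepatocytes around the portal vein hold most of the cycle, and fasting hormones such as glucagon and glucocorticoids are known to raise its genes and Tat.

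The arrays were alike, with medians from 3.94 to 3.996 on the log2 scale. Any pair of them had a Pearson's r of 0.986 to 0.995 across probe sets, which are not independent replicates. Hepatocyte markers were bright, with a median at the 99.9th percentile of all probe sets, as the tissue label has it. Pml had log2 signals of 4.92 to 5.40 in the 6 wild-type and 3.04 to 3.82 in the 6 knockout livers, so the genotype labels held. Macrophage markers, averaged and set against their mean over all arrays, were lowest in knockout low-fat replicate 2 (-1.26) and knockout high-fat replicate 3 (-0.67), with ranges of -1.26 to 0.47 and -0.67 to 0.72 in those groups, and lay between -0.18 and 0.28 in the wild-type groups. Liver endothelial markers were lowest in knockout high-fat replicate 2 (-0.62).

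No gene of the set passed the test in any of the 7 comparisons (limma, adjusted p under 0.05 over 10258 genes), that is, in none of 56 tests. Of all genes tested, 0% to 4.56% passed, depending on the comparison, so a count of 0 of 8 is not particular to this set. The largest log2 change was that of Tat, -0.57, which is 1.48-fold, and the smallest adjusted p was 0.0633, for Arg1 under the high-fat diet. An unadjusted p under 0.05 was found in 8 of the 56 tests, while 4.46% to 19.7% of all genes tested had one, depending on the comparison. For 7 of the 8 genes the 95% confidence interval of the change lay within 1.5-fold in each comparison, a limit chosen after the values were seen. Tat was the exception. Of all genes tested, 59.8% to 94.5% had an interval within that limit, depending on the comparison, so the count is not particular to this set. The brighter probe sets are among the brightest of the array, with a mean at or above the 98.5th percentile of all probe sets in 7 of the 8 genes and at the 92.2nd for Nags, and bright probes are known to understate changes. The dimmer Otc and Ass1 probe sets were at the 84.7th and 77.3rd percentile.

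**Figure D1:**
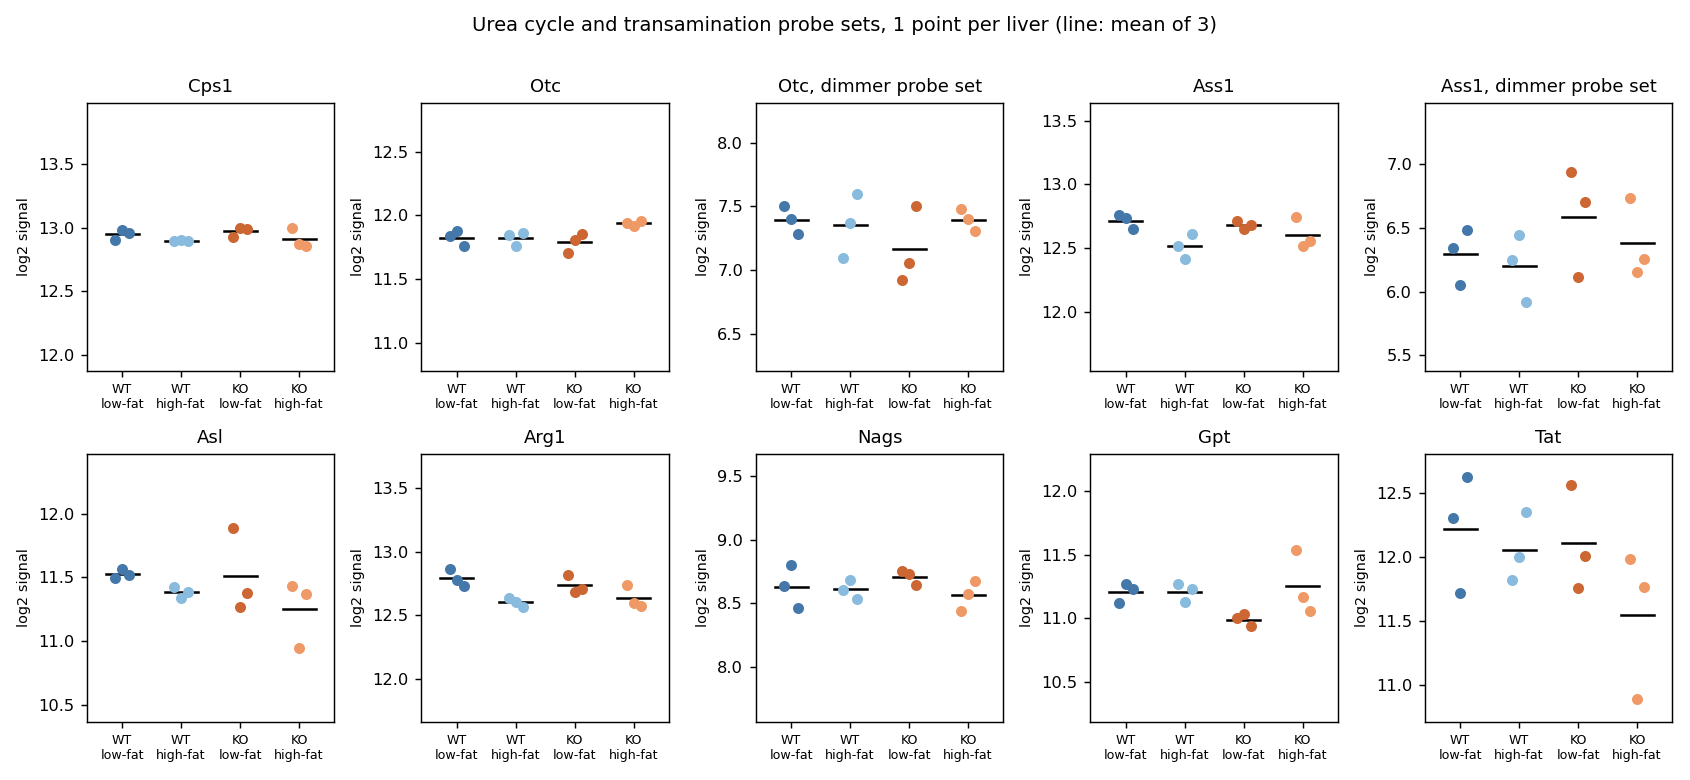
Log2 signal (y axis, a span of 2.1 log2 units in every panel) of the 10 probe sets in each of the 12 livers, by genotype (WT, wild type; KO, knockout) and diet; the line is the mean of the 3 livers. Cps1 and the brighter Otc and Arg1 probe sets vary little, while Tat ranges from 10.89 to 12.63.

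In the mitochondrion, the cycle starts with Cps1, which joins ammonia and bicarbonate into carbamoyl phosphate, and Nags, which makes the N-acetylglutamate that Cps1 needs to work. Cps1 (probe set 1455540_PM_at) had log2 signals of 12.90, 12.98 and 12.96 in wild-type low-fat livers, 12.89, 12.90 and 12.89 in wild-type high-fat livers, 12.93, 12.997 and 12.99 in knockout low-fat livers and 12.999, 12.87 and 12.85 in knockout high-fat livers. The 12 livers spanned 0.15 log2 units in all, and the groups overlapped. Averaged over both diets the knockout had 1.01-fold as much Cps1 signal (log2 change 0.02, SE 0.0324, limma adjusted p = 0.93), with a 95% confidence interval of 0.964 to 1.06-fold. The high-fat diet, averaged over genotypes, had a log2 change of -0.06 with an interval of 0.915 to 1.01-fold. Nags (1425230_PM_at) ranged from 8.44 to 8.80 over the 12 livers, with group means of 8.63 ± 0.170 and 8.71 ± 0.0595 for wild type and knockout on the low-fat diet, and 8.61 ± 0.0755 and 8.56 ± 0.116 with more fat (SD, n = 3). Its genotype change averaged over diets was 0.02 (interval 0.912 to 1.12-fold) and its diet change averaged over genotypes -0.08 (0.851 to 1.05-fold).

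Otc joins carbamoyl phosphate to ornithine and so makes citrulline, the last mitochondrial step. Its brighter probe set (1420525_PM_a_at) had 11.84, 11.87 and 11.76 in the wild-type livers on low fat, 11.84, 11.76 and 11.86 on high fat, 11.70, 11.81 and 11.85 in the knockout livers on low fat and 11.94, 11.92 and 11.96 on high fat. The 3 knockout high-fat livers lay above all 9 others. The log2 change between diets in knockout livers was 0.15 (SE 0.053, limma adjusted p = 0.141), and the change between genotypes on the high-fat diet was 0.12 (adjusted p = 0.996). The difference between the 2 diet effects was 0.15 (SE 0.0749, adjusted p = 0.852). The dimmer probe set (1425540_PM_at) ranged from 6.92 to 7.60 and did not set the knockout high-fat livers apart. They had 7.48, 7.40 and 7.31 against 7.51, 7.40 and 7.28 in wild-type low-fat livers. In this probe set the log2 change between diets in the knockout was 0.23, with an interval from -0.10 to 0.57. The change between genotypes on the high-fat diet was 0.04, and the difference between the 2 diet effects 0.27 (interval -0.20 to 0.75). In both Otc probe sets the lowest of the 12 arrays was knockout low-fat replicate 1.

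In the cytosol, Ass1 joins citrulline to aspartate, Asl splits the product into arginine and fumarate, and Arg1 cuts arginine into urea and ornithine. Ass1 (1416239_PM_at) had log2 signals of 12.76, 12.73 and 12.65 in wild-type low-fat livers and 12.52, 12.41 and 12.61 in wild-type high-fat livers. In knockout livers it had 12.71, 12.65 and 12.68 on the low-fat and 12.74, 12.52 and 12.55 on the high-fat diet. Values of the diets did not overlap in wild type but did in the knockout, where high-fat replicate 1 lay above the 3 low-fat livers. The log2 change under the high-fat diet was -0.20 in wild type (SE 0.0649, limma adjusted p = 0.338), -0.08 in the knockout (adjusted p = 0.582) and -0.14 averaged over genotypes (interval 0.847 to 0.972-fold, adjusted p = 0.105). The dimmer Ass1 probe set (1459937_PM_at) ranged from 5.92 to 6.94 and had a diet change of -0.15 averaged over genotypes, with an interval from -0.48 to 0.19 on the log2 scale.

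Arg1 (1419549_PM_at) came closest to the threshold. It had 12.87, 12.77 and 12.73 in the wild-type livers on low fat, 12.64, 12.61 and 12.56 on high fat, 12.82, 12.69 and 12.71 in the knockout livers on low fat and 12.74, 12.60 and 12.58 on high fat. As with Ass1, the diets did not overlap in wild type, and in the knockout high-fat replicate 1 lay among the low-fat livers. Averaged over genotypes, the log2 change under the high-fat diet was -0.14 (SE 0.0401, interval 0.852 to 0.961-fold, limma adjusted p = 0.0633), with -0.19 in wild type and -0.10 in the knockout. Without knockout high-fat replicate 1, Arg1 (log2 change -0.17, adjusted p = 0.0301) and Ass1 (-0.17, adjusted p = 0.035) both passed. Each failed in the other 11 refits that left out an array, with adjusted p up to 0.148 for Arg1 and 0.239 for Ass1. Arg1 is also made by some macrophages, and the macrophage markers had log2 changes above 0 in 12 of 12 tested members under the high-fat diet, with a median of 0.34, while 51.2% of all genes were below 0. None of the 12 passed limma's test (4.56% of all genes did) and 0 had an unadjusted p under 0.05 (19.7%). Their part in the Arg1 value was not tested.

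Asl (1448350_PM_at) had 11.50, 11.57 and 11.52 in wild-type low-fat and 11.42, 11.34 and 11.39 in wild-type high-fat livers, again without overlap. In knockout livers it was more scattered, at 11.89, 11.26 and 11.38 on the low-fat and 11.43, 10.95 and 11.37 on the high-fat diet. Its SD was 0.0364 and 0.0407 in the wild-type groups and 0.331 and 0.262 in the knockout groups (low-fat and high-fat diet, n = 3 each). The difference in spread was not tested. The diet change averaged over genotypes was -0.20 (SE 0.103, limma adjusted p = 0.302). It was -0.11 without replicate 1 of the knockout low-fat group and -0.13 without replicate 2 of the knockout high-fat group.

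Among the aminotransferases, Gpt moves the amino group of alanine to 2-oxoglutarate and is the enzyme measured in blood as alanine aminotransferase. Its probe set (1426502_PM_s_at, where the s marks probes that may match several transcripts) had 11.12, 11.27 and 11.23 in wild-type low-fat and 11.27, 11.13 and 11.23 in wild-type high-fat livers. It had 11.01, 11.03 and 10.94 in the knockout livers on low fat and 11.54, 11.17 and 11.06 on high fat. The knockout low-fat livers lay below all 9 others. The log2 change between genotypes was -0.22 on the low-fat diet (SE 0.1, limma adjusted p = 0.569) and 0.05 on the high-fat diet (adjusted p = 1), and that between diets in the knockout was 0.27 (adjusted p = 0.171). In wild type the diet change was under 0.01 in size. Without knockout high-fat replicate 1 the knockout's diet change was 0.12 and its genotype change on the high-fat diet -0.09. The difference between the 2 diet effects was 0.27 (SE 0.142, adjusted p = 0.869).

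Tat starts the breakdown of tyrosine and is a classic target of glucocorticoids and glucagon. It varied more between livers of a group than any other gene of the set. Tat (1451557_PM_at) had log2 signals of 12.31, 11.72 and 12.63 in the wild-type livers on low fat, 11.82, 11.998 and 12.36 on high fat, 12.56, 11.76 and 12.01 in the knockout livers on low fat and 11.98, 10.89 and 11.76 on high fat. The groups overlapped, and knockout high-fat replicate 2 was the lowest of the 12, as it was for Asl. The change between genotypes on the high-fat diet was -0.51 (SE 0.293, interval 0.45 to 1.09-fold, limma adjusted p = 0.996) and was -0.19 without that replicate. The change between diets in the knockout was -0.57 (interval 0.434 to 1.05-fold, adjusted p = 0.335), and -0.24 without it. Both intervals hold a value of 1, no change, and also reach past a level 1.5-fold lower.

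**Figure D2:**
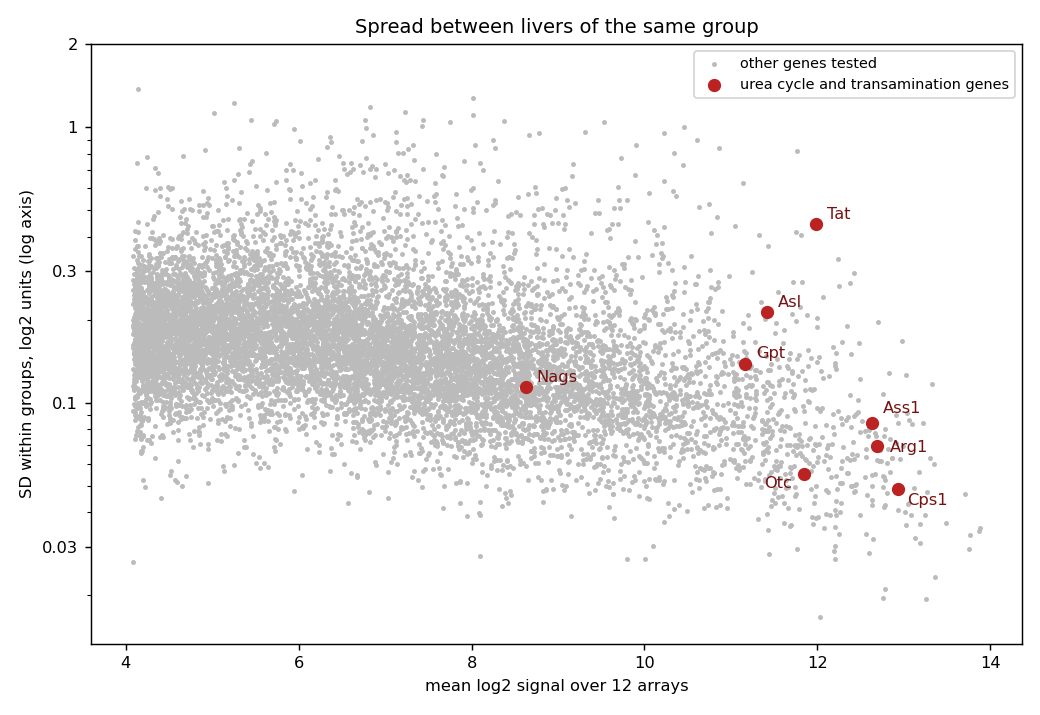
Standard deviation within groups (y axis, log scale, log2 units) against mean log2 signal over 12 arrays (x axis) for the genes tested, with the 8 urea cycle and transamination genes in red. Tat, at 0.445, lies near the top of the genes of its brightness, and Cps1, at 0.0488, near the bottom.

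The spread between extracts of the same group differed widely among these genes. The within-group SD was 0.0488 for Cps1, 0.0553 for Otc, 0.0694 for Arg1 and 0.0841 for Ass1, against 0.213 for Asl and 0.445 for Tat (8 residual degrees of freedom). Among the 1000 tested genes closest in mean signal, Cps1 was at the 9.7th percentile of spread and Otc at the 15th, while Asl was at the 91.2nd and Tat at the 98.3rd. Nags (0.114) and Gpt (0.138) were at the 40.8th and the 76th percentile.

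The comparison of genotypes asks whether loss of Pml alters the set on either diet. Of the 8 genes 0 passed on the low-fat diet, where 0.00975% of all genes did, and 1 (Gpt) had an unadjusted p under 0.05, against 8.72% of all genes. On the high-fat diet 0 passed (0.00975% of all genes), and 1 (Otc) had an unadjusted p under 0.05 (4.46%). Averaged over diets 0 passed (0.0195%) and 0 had an unadjusted p under 0.05 (7.26%). Gpt was lower in the knockout without overlap on the low-fat diet (4.92% of all genes were), and Otc higher without overlap on the high-fat diet (6.62%). Over both diets 0 of 8 did not overlap (0.263%). Values below 0 were found for 6 of 8 genes on the low-fat diet (48.5% of all genes), 3 on the high-fat diet (48.5%) and 4 on average (47.8%). The median log2 change of the 8 genes averaged over diets was 0.004. The 95% intervals of that averaged change reached no lower than 0.813-fold (Asl) and no higher than 1.12-fold (Nags) in the 7 genes other than Tat, for which the interval was 0.59 to 1.10-fold.

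The comparison of diets asks whether the fat load alters the set in either genotype. In wild-type livers all 8 values were below 0 (50.3% of all genes tested were), with a median of -0.10. The value of Ass1 was -0.20, while those of Otc and Gpt were under 0.01 in size. Nags had 0.06 without wild-type low-fat replicate 2, and Tat 0.05 without replicate 3 of that group. Otc and Gpt also changed sign in some refits that left out an array. None passed (0.175% of all genes), 2 had an unadjusted p under 0.05 (Arg1 and Ass1, 8.82% of all genes), and 3 (Arg1, Ass1 and Asl) were lower on the high-fat diet without overlap (7.89%). In knockout livers 6 of 8 values were below 0 (51.6%), with a median of -0.09. None passed (3.03%), and 2 had an unadjusted p under 0.05 (18.3%). These were Otc and Gpt, which were higher on the high-fat diet without overlap (10.8%). Averaged over genotypes 6 of 8 values were below 0 (51.2%), with a median of -0.11, and 0 of 8 did not overlap (3.27%). None passed (4.56%) and 2 (Arg1 and Ass1) had an unadjusted p under 0.05 (19.7%). For the difference between the diet effects, none of the 8 passed and none had an unadjusted p under 0.05 (0% and 5.70% of all genes). The comparisons of genotype and of diet share arrays, so their values are not independent of each other.

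**Figure D3:**
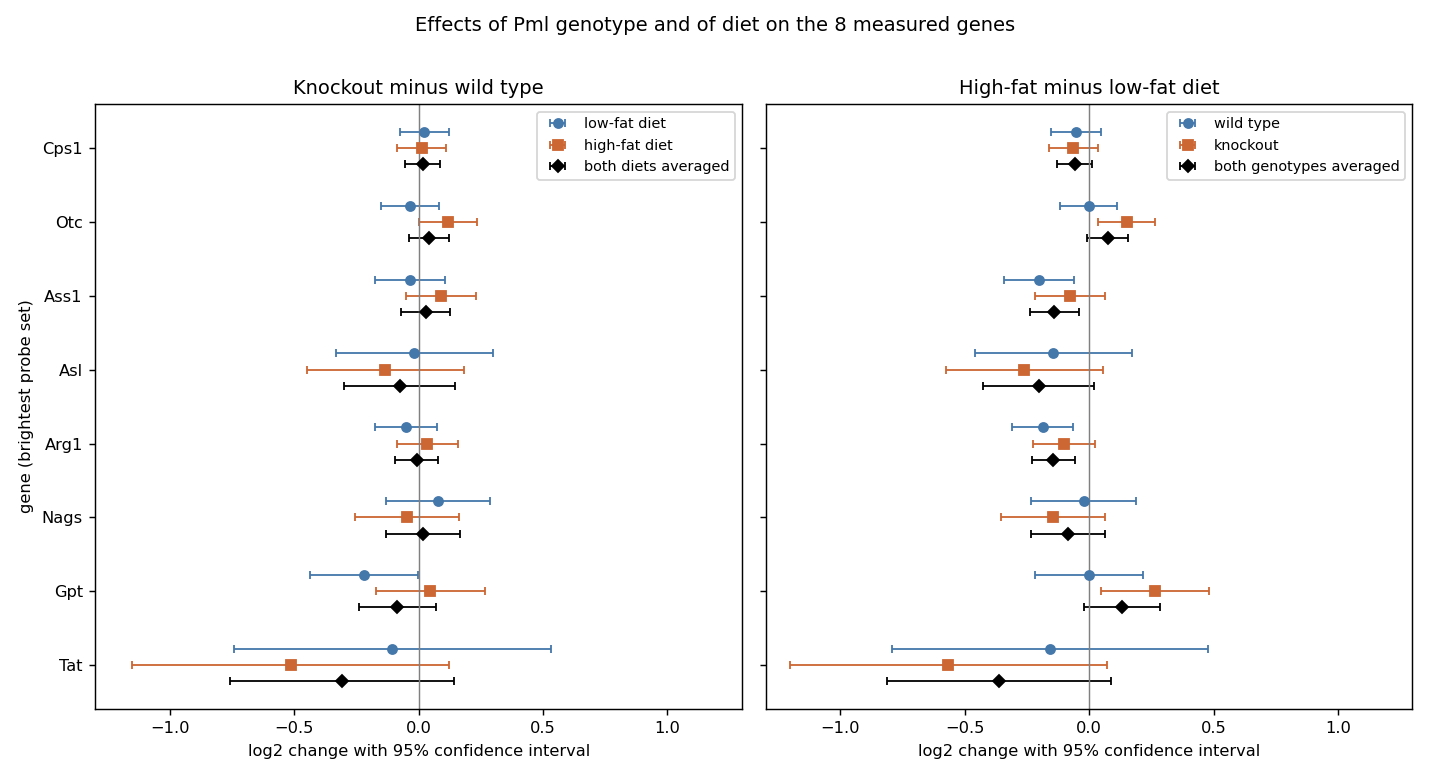
Log2 change (x axis) with its 95% confidence interval for the 8 genes, knockout minus wild type on the left and high-fat minus low-fat diet on the right; circles and squares are the single diets or genotypes and diamonds their average. The averaged intervals of Arg1 and Ass1 in the diet panel lie below 0, without passing the correction over all genes, and those of Tat are the widest.

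Genes next to the cycle were read from lists of other steps. The high-fat diet, averaged over genotypes, changed several enzymes of amino acid breakdown. Of 45 tested members of 55 listed, 7 rose and 2 fell (limma, adjusted p under 0.05), against 2.57% and 1.99% of all genes tested, with a median log2 change of 0.07 against -0.004 over all genes. Agxt2, a mitochondrial aminotransferase for glyoxylate, rose 1.34-fold (log2 change 0.42, SE 0.0512, adjusted p = 0.000946). Aadat, the aminotransferase of aminoadipate and kynurenine, rose 1.41-fold (0.49, adjusted p = 0.00777). Aspg, an asparaginase, fell 1.46-fold (log2 change -0.54, adjusted p = 0.00879), and Hal, which starts the breakdown of histidine, fell 1.44-fold (-0.52, adjusted p = 0.00534). These 4 genes passed without each of the 12 arrays in turn. The other genes that rose were Abat, Prodh, Hibch, Gcdh and Bckdhb, which act on 4-aminobutyrate, proline, valine, lysine and branched-chain amino acids in general.

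In single genotypes the diet gave fewer calls in this list. In wild type 0 of 45 passed by limma (0.175% of all genes did), with 10 at an unadjusted p under 0.05 (8.82%). In the knockout 6 rose and 1 fell, against 1.75% and 1.28% of all genes. The gene that fell in the knockout was Hal (log2 change -0.50, limma adjusted p = 0.0436). That call was kept in only 2 of 12 refits without an array (adjusted p up to 0.141). Prodh, the first enzyme of proline breakdown, rose 1.47-fold there (adjusted p = 0.0203) and Abat 1.42-fold (adjusted p = 0.0189). The Prodh call was lost in 3 of 12 refits without an array (adjusted p up to 0.0688), those without low-fat replicate 2 or high-fat replicate 1 or 2 of the knockout. The Abat call was lost in 4 (up to 0.0772), those same arrays and low-fat replicate 1. The count of 7 rested on single arrays: leaving out a knockout low-fat array gave 3 (replicate 1) or 1 (replicate 2), and leaving out a knockout high-fat array gave 2 (replicate 1), 2 (replicate 2) or 4 (replicate 3). Without both knockout arrays low in macrophage markers, low-fat replicate 2 and high-fat replicate 3, it was 1, while the averaged count of 9 was 8. Agxt2 passed in the knockout in all 12 refits that left out an array, with log2 signals of 9.62 ± 0.0652 there on the low-fat diet against 10.14 ± 0.135 when fed more fat (SD, n = 3). The wild-type livers had 9.69 ± 0.0378 and 10.01 ± 0.00425 in that order. A difference of the diet effect between genotypes was not shown, since 0 of 10258 genes passed limma's test of it and 5.70% had an unadjusted p under 0.05. By genotype 0 of the 45 passed on either diet or on average, with 8, 2 and 7 at an unadjusted p under 0.05 on the low-fat diet, the high-fat diet and on average, against 8.72%, 4.46% and 7.26% of all genes.

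Among transporters and enzymes that supply nitrogen or use ornithine and glutamate, 2 of 17 tested members rose under the high-fat diet averaged over genotypes, and 0 fell (2.57% and 1.99% of all genes). Oat, which sends ornithine out of the cycle toward glutamate, rose 1.38-fold (log2 change 0.46, SE 0.1, limma adjusted p = 0.0223), a call lost without wild-type low-fat replicate 3 (adjusted p = 0.0537). Slc1a2, a glutamate transporter, rose 1.58-fold (0.66, adjusted p = 0.0112). Slc25a15, the mitochondrial ornithine carrier of the cycle, had -0.13 (adjusted p = 0.168). Slc25a13, which exports aspartate for Ass1, had 0.16 (adjusted p = 0.0788). Got2, the mitochondrial partner of Got1, had 0.09 (adjusted p = 0.13) and Gpt2, that of Gpt, 0.08 (adjusted p = 0.744). In serine and glycine metabolism Shmt1 and Shmt2, 2 of 5 tested members of the list of serine, asparagine and glutamine synthesis, rose 1.29-fold and 1.22-fold (adjusted p = 0.0136 and 0.0167), where 2.57% of all genes rose. Their log2 changes were 0.13 and 0.17 in wild type, and 0.61 and 0.40 in the knockout. The difference between the diet effects passed for neither (limma adjusted p = 0.802 and 0.869).

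**Figure D4:**
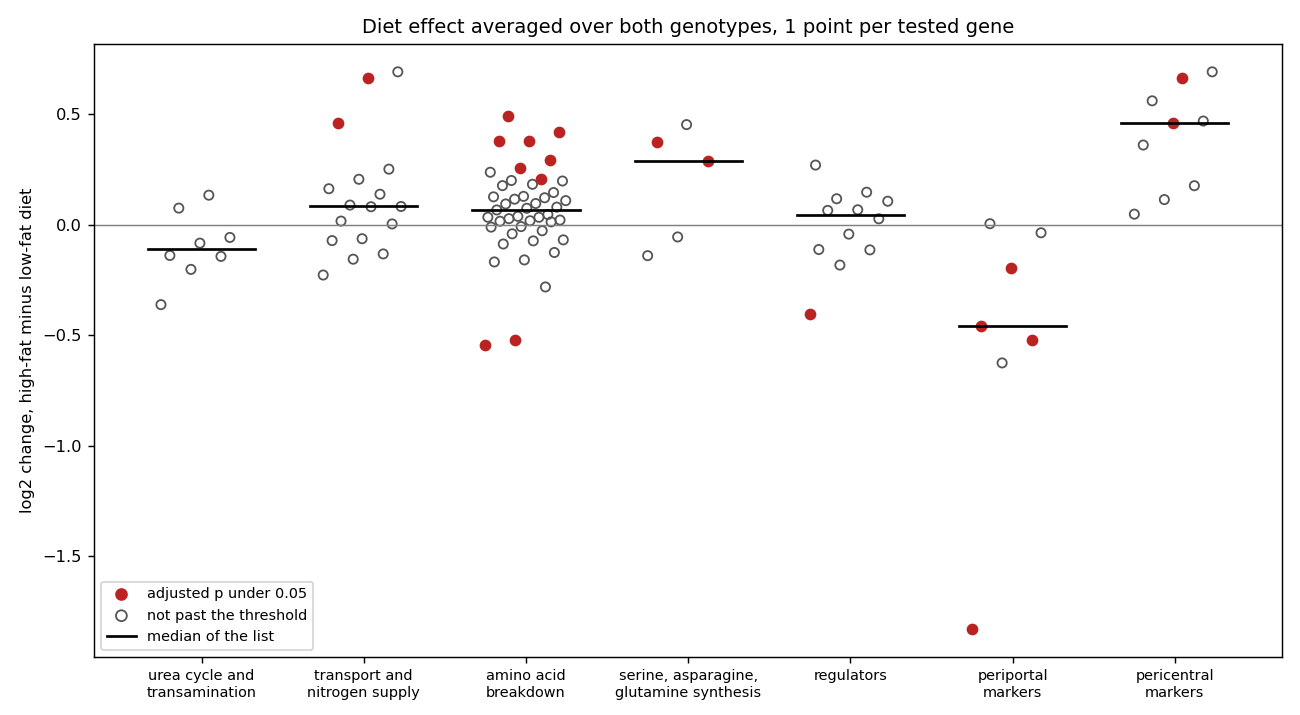
Log2 change under the high-fat diet averaged over genotypes (y axis), 1 point per tested gene, by list (x axis); red points had an adjusted p under 0.05 and the line is the median of the list. None of the 8 urea cycle and transamination genes is red, and 9 of 45 genes of amino acid breakdown are. Of all genes tested, 4.56% had an adjusted p under 0.05 in this comparison. The lack of red points among the 8 genes is therefore not particular to them.

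Oat and Slc1a2 are also markers of pericentral hepatocytes, those around the central vein, and Hal is a marker of periportal ones. In the pericentral list 2 of 9 tested members, Oat and Slc1a2, rose under the high-fat diet on average (2.57% of all genes). These are the 2 genes already named above, and the median of 0.46 is the value of Oat. All 9 were above 0, from 0.05 to 0.69, while 51.2% of all genes were below 0. Cyp2e1 had 0.05 and Cyp1a2 0.11 (limma adjusted p = 0.359 and 0.316). In the periportal list 4 of 7 fell (1.99%), with a median of -0.46, and the median of all genes was -0.004. They were Etnppl, a lyase of phosphoethanolamine (log2 change -1.83, limma adjusted p = 0.00583), Hal, the protease Ctsc (-0.46, adjusted p = 0.00236) and the cytochrome Cyp2f2 (-0.20, adjusted p = 0.0242). Cyp2f2 lost its call when any of 4 arrays was left out, which were replicate 1 of the wild-type low-fat, wild-type high-fat and knockout low-fat groups and replicate 2 of the wild-type high-fat group (adjusted p up to 0.061). Beside them the values of Cps1, Ass1 and Arg1, which are likewise known as periportal, were -0.06, -0.14 and -0.14 in the same comparison. Those of Asl, Nags and Otc, the other genes of the cycle, were -0.20, -0.08 and 0.07. The aminotransferases Gpt and Tat had 0.13 and -0.36. In bulk tissue, fewer cells of a type and less RNA per cell cannot be told apart.

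Of 12 tested regulators of urea cycle and amino acid genes, 1 fell under the high-fat diet on average (1.99% of all genes). It was Cebpa, a liver transcription factor, with a log2 change of -0.40 (SE 0.0885, limma adjusted p = 0.0229). The call was lost when replicate 1 of the wild-type low-fat group, replicate 3 of the wild-type high-fat group, or either replicate 2 or replicate 3 of the knockout high-fat group was left out (adjusted p up to 0.0603). Hnf4a, another hepatocyte factor, fell in the knockout (-0.39, adjusted p = 0.0229), as did 1.28% of all genes, and this call was lost without replicate 1 or 2 of its low-fat group and without replicate 2 or 3 of its high-fat group (adjusted p up to 0.0878). Averaged over genotypes, the diet changes of the glucocorticoid receptor Nr3c1, the glucagon receptor Gcgr and Klf15, an activator of amino acid breakdown, were 0.07, 0.11 and -0.11 (adjusted p = 0.673, 0.316 and 0.715). Targets of glucagon and glucocorticoids other than Tat had log2 changes below 0 in 9 of 9 tested members when knockout high-fat livers were set against wild-type high-fat livers (48.5% of all genes were below 0), with a median of -0.57. None of the 9 passed by limma (0.00975% of all genes), and 2 had an unadjusted p under 0.05 (4.46%). Against knockout low-fat livers 9 of 9 were below 0 as well (51.6%), with a median of -0.61, 0 that passed (3.03%) and 3 at an unadjusted p under 0.05 (18.3%). Liver endothelial markers lay on the same side. Against wild-type high-fat livers 13 of 13 tested endothelial markers were below 0 (48.5% of all genes), with a median of -0.55. Of these 0 passed (0.00975%) and 5 had an unadjusted p under 0.05 (4.46%). Against knockout low-fat livers 12 of 13 endothelial markers were below 0 (51.6% of all genes), with a median of -0.49. Here 0 passed (3.03%) and 4 had an unadjusted p under 0.05 (18.3%). Their averaged level, relative to the mean of all arrays, ranged from -0.62 to 0.17 in knockout high-fat, from -0.41 to 0.47 in knockout low-fat and from 0.001 to 0.35 in all wild-type livers. Their part in the values of Tat and of these targets was not tested. Both comparisons share the knockout high-fat arrays, where Tat was also lowest on average.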

How the data were processed

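The authors deposited log2 values for 45141 probe sets. They had used RMA, according to the submitters' processing notes, in a version not given in the sources used here. It brings arrays to a shared distribution, so a shift of all genes is hidden. The genes of probe sets come from GEO's platform annotation: 28898 probe sets had 1 gene, 551 several and 15588 none, beside 104 controls.

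The brightest probe set stood for a gene, and the 40% of genes with the lowest mean were left out. With limma 3.58.1 (R 4.3.3), 4 group means were fitted to all 12 arrays, letting the variance prior follow brightness. A gene passed at a Benjamini-Hochberg adjusted p under 0.05 over the 10258 genes tested; SE and intervals are limma's. For the dimmer probe sets, 17339 probe sets were fitted one by one. The fit was tested on simulated data. Members and gene lists were chosen with earlier results of these data known. The named genes of other lists are up to 4 per list and comparison that passed, by size, plus a few regulators; the carriers, Got2, Gpt2 and the 5 further genes of amino acid breakdown were chosen after their values were seen. Alternatives were other normalization, filters, probe set rules, variance models, array weights, a replicate block and leaving out arrays.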

Additional observations from a re-analysis of the deposited data

How the results depend on the processing

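The count of 0 of 8 genes past the threshold held under every alternative run in 6 of the 7 comparisons. In the diet comparison averaged over genotypes it became 1 (Arg1) with arrays centred on the median (adjusted p = 0.0486), with 60% of genes left out (0.0459) and at a threshold of 0.1. It became 2 (Arg1 and Ass1) with array weights (adjusted p = 0.0156 and 0.0411), and 0 to 2 over the refits that left out an array. The log2 change of Arg1 in that comparison stayed between -0.18 and -0.12 (adjusted p from 0.0156 to 0.185). Of 1320 refitted log2 changes of the 8 genes, 52 had the other sign. They concern 21 of the 56 values, none of which had an unadjusted p under 0.05, and none is a diet change averaged over genotypes.

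Whether extracts of the same number were paired was not settled. The correlation of their deviations from the group means lay between -0.17 and 0.38, over 0.1 in 7 of 18 pairs. Between low-fat and high-fat knockout livers it was 0.38 for replicate 1 and 0.31 for replicate 2, but -0.04 for replicate 3. Of 36 best matches 18 had the same number, a count that was not tested against chance. With the replicate number as a block, 1 of the 8 genes (Arg1, adjusted p = 0.0181) passed in the averaged diet comparison and 484 genes in all, against 468 without it.

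The count of 7 amino acid breakdown genes in the diet comparison of knockout livers was 4 when each gene's probe sets were averaged, 3 with no variance trend, 1 with the 2 groups alone and 1 without the 2 arrays low in macrophage markers, and from 1 to 8 without an array each. These refits of that list were chosen after seeing the data. Of the averaged count of 9, refits without an array gave 8 to 11. The number of arrays limits the precision, and Tat most.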

Other observations

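Over the 12 arrays, the genes outside the set whose log2 values ran most like those of Arg1, the gene of the set with the smallest p, were Haao, Lepr and Rpl7, with Pearson's r of 0.92, 0.92 and 0.90 among 10250 genes searched. Haao is an enzyme on the path from tryptophan to quinolinate, Lepr is the leptin receptor and Rpl7 a ribosomal protein. Under the high-fat diet averaged over genotypes, their log2 changes were -0.17 (limma adjusted p = 0.148), -0.53 (adjusted p = 0.00869) and -0.08 (adjusted p = 0.238). The highest of 10250 correlations over 12 arrays is large by choice, so the values only describe these arrays.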
